A study of Rattus norvegicus with 9 samples.

Results

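Galectins and annexins were followed in demyelinated white matter of the rat brain at 5, 14 and 28 days post lesion (dpl). The 10 genes considered were Lgals1, Lgals3, Lgals3bp, Lgals5, Lgals9, Anxa1, Anxa2, Anxa3, Anxa4 and Anxa5. They were chosen by name, though with earlier results of these data known. Every probe carrying one of these symbols in the platform annotation was taken. Of the 10 genes, 8 had a probe in the authors' normalized table, 1 probe each, among 7574 named genes. Lgals5 and Lgals9 carry no probe there and were not analysed here.

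All 9 arrays come from Sprague Dawley rats aged 12 weeks at lesioning, in which 0.1% ethidium bromide had demyelinated the caudal cerebellar peduncle. Ethidium bromide kills oligodendrocytes and astrocytes at the site of injection, and the lesion afterwards remyelinates. The lesioned tissue was isolated by laser capture, so each array reports a whole lesion with all its cell types, and there was no unlesioned group among these samples. Each time point holds 3 arrays, which the series describes as biological replicates. The labels do not say if the arrays of a time point were from separate animals, and a p-value here is set against the scatter among these arrays, which may be technical.

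Galectins are lectins that bind galactose-containing sugars on glycoproteins. They are made in the cytosol and leave the cell without passing through the classical secretory pathway, and galectin-3 is abundant in phagocytosing macrophages and microglia. Annexins bind acidic membrane phospholipids when calcium rises, and act in membrane trafficking, membrane repair and the handling of dying cells. Both families are prominent in injured nervous tissue, where phagocytes clear myelin debris.

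Levels are the authors' normalized values on a log2 scale, which run from 6.87 to 14.93 with a median of 8.31. The 8 probes were above the estimated background of 7.25 to 7.31 on all 9 arrays. Differences are log2 differences with the standard error (SE) of a limma fit over all 10552 probes, with n = 3 at each time. Adjusted p-values are limma's, by the Benjamini-Hochberg method over all probes. A gene is said to rise or fall where this adjusted p was under 0.05. Fractions of targets detected were alike, 39.3% to 42% of the raw targets on each array. In neuron markers, 1 array stood apart. Over the 7 measured, 5 dpl replicate 1 had a mean level of 10.43, against 7.93 and 8.33 on the other 5 dpl arrays. The later arrays were at 7.79 to 8.93. The same array was highest of its group in astrocyte (10.33 against 9.52 and 9.65) and myelin markers (9.27 against 8.68 and 8.63). For the galectins and annexins called between 5 and 14 dpl, values without 5 dpl replicate 1 are therefore given too. The differences of related genes and markers were not tested without it. In turn, 5 dpl replicate 3 was highest of its group in fibroblast (10.70 against 9.68 and 9.83) and T cell markers (8.66 against 7.63 and 7.86).

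Upstream sequences of 3 genes whose levels changed are shown for orientation. They come from the 250 bases before the transcript start in RefSeq (GRCr8), without the 81 bases next to that start in Anxa3 and the 21 in Anxa4 that lie within the gene's annotated span, 5′ to 3′ on the gene's strand, Lgals3bp at chr10:104127849-104128098 (minus strand), Anxa3 at chr14:13085679-13085847 (minus strand) and Anxa4 at chr4:120798535-120798763 (minus strand). Capitals mark matches on either strand to the GC box GGGCGG, the TATA box TATAAA, the CCAAT box CCAAT or the AP-1 site TGAGTCA.
Lgals3bp: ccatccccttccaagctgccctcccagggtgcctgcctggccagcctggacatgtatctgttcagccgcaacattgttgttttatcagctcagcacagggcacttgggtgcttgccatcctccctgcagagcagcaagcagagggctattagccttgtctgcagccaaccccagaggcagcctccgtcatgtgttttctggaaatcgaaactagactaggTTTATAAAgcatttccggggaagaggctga
Anxa3: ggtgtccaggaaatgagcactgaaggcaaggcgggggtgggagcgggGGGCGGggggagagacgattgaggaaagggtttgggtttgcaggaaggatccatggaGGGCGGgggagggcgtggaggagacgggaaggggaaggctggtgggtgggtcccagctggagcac
Anxa4: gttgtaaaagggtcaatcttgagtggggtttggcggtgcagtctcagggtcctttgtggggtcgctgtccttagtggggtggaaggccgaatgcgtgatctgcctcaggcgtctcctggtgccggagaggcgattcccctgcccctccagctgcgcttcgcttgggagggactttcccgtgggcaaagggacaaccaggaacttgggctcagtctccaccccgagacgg
Lgals3bp has overlapping TATA matches on opposite strands whose first bases lie 30 and 28 bases before the start, whereas the Anxa3 stretch has GC boxes and no TATA match, and the printed Anxa4 stretch has neither. Over the 250 bases before the start, 3 of the 6 members with a RefSeq promoter entry (Anxa1, Anxa2 and Lgals3bp) held a TATA match and 4 (Anxa2, Anxa3, Anxa4 and Anxa5) a GC box, against 12.9% and 30.5% of 33469 promoters. The CCAAT box was found in 1 of the 6, Anxa4, and the AP-1 site in 1, Anxa2, against 34.0% and 4.0% of promoters. Not all of these matches lie outside the gene's annotated span. The whole Anxa1 window lies within that span, as do 239 of the 250 Anxa5 bases, which include its GC box. In Anxa4 the CCAAT box lies within the span and the GC box runs into it. The matches describe the letters of the windows only.

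Between 5 and 14 dpl, 4 of the 8 genes fell (Lgals3bp, Anxa1, Anxa4 and Anxa5) and 1 rose (Anxa3). Of all probes, 10.1% were lower and 10.7% higher by the same rule. The median difference of the 8 was -0.42, against -0.014 over all probes. Between 14 and 28 dpl 1 gene rose (Anxa4) and 1 fell (Anxa3), where 7.49% of all probes were higher and 7.48% lower. From 5 to 28 dpl, 5 of the 8 fell and 0 rose, where 24.1% of all probes were lower and 20.2% higher. Between 5 and 14 dpl the arrays of the compared time points did not overlap for 4 genes that were lower and 1 that was higher, against 19.5% and 18.5% of all probes. Between 14 and 28 dpl this was so for 1 lower and 2 higher genes, against 20.2% and 18.6%, and between 5 and 28 dpl for 5 lower and 0 higher genes, against 29.9% and 23.9%. The 3 comparisons share arrays with each other, so their counts are not independent. In whole lesions, fewer cells of a type and less RNA per cell cannot be told apart in any of these differences.

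**Figure D1:**
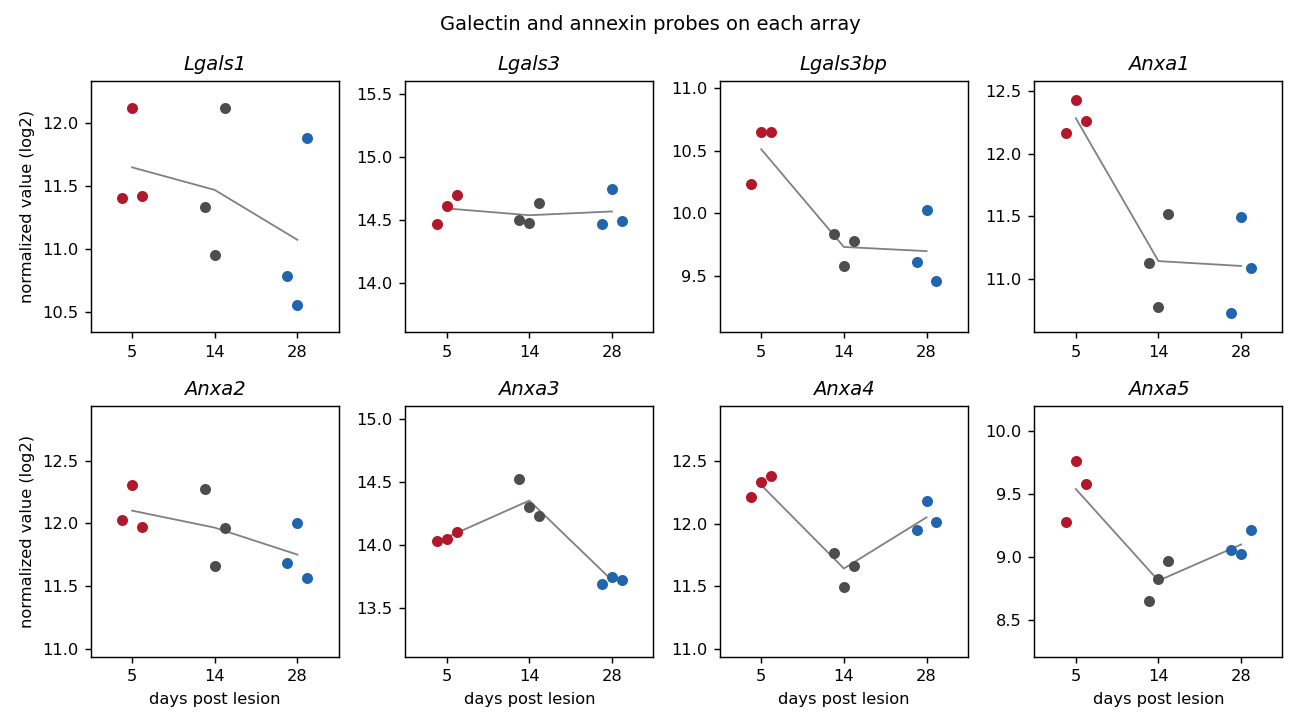
Authors' normalized log2 values of the 8 probes on each of the 9 arrays, by days post lesion, with lines through the 3 time point means; every panel spans 2 log2 units. Lgals3 stayed between 14.47 and 14.75 on all arrays, Anxa1 dropped from a mean of 12.28 to 11.15 between 5 and 14 dpl, and Anxa3 was highest at 14 dpl.

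Among the galectins, Lgals3, which encodes galectin-3, was close to the top of the array's range at every time point. Its values were 14.47, 14.61 and 14.70 at 5 dpl, 14.50, 14.48 and 14.64 at 14 dpl, and 14.47, 14.75 and 14.49 at 28 dpl. The 3 time points overlapped throughout. The differences were -0.054 (95% confidence interval -0.27 to 0.16, SE 0.094) from 5 to 14 dpl, 0.030 (-0.18 to 0.24) from 14 to 28 dpl and -0.024 (-0.24 to 0.19) from 5 to 28 dpl. The last has an adjusted p = 0.861, and its interval excludes a fall of more than 0.24 on this scale. The signs of the latter differences turned with the setting: that from 14 to 28 dpl was -0.022 with array weights, and that from 5 to 28 dpl was 0.013 with cyclic loess. On each array this probe ranked between 7th and 58th of 10552 in brightness, and whether it was near saturation was not tested.

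Galectin-3 is a product of phagocytes, and the markers of these cells did change. Of 16 microglia and macrophage markers 14 were measured, with a mean level per array of 11.70 to 11.78, then 11.33 to 11.51 and last 10.57 to 10.92. From 5 to 28 dpl 11 of the 14 fell and 0 rose with limma, where 24.1% of all probes were lower. The median difference over the 14 was -1. Ctss, which encodes the lysosomal protease cathepsin S, had means of 14.53, 14.57 and 14.40 (28 minus 5 dpl -0.13, SE 0.088, adjusted p = 0.269). Fcer1g, an Fc receptor subunit, went from 14.67 to 14.41 (-0.26, SE 0.064, adjusted p = 0.0112). C1qb, a complement gene, fell by 1.31 over the same interval (SE 0.18, adjusted p = 0.00047), its means being 14.59 and 13.28. Whether Lgals3 and the marker list differed in their change was not tested.

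Lgals3bp encodes a secreted glycoprotein that binds galectin-3. Its probe read 10.23, 10.65 and 10.65 at 5 dpl, 9.84, 9.58 and 9.78 at 14 dpl, and 9.61, 10.03 and 9.46 at 28 dpl. Every 5 dpl array was above every later one, while the 14 and 28 dpl arrays overlapped. It fell by 0.78 from 5 to 14 dpl (SE 0.16, adjusted p = 0.0107), a 1.72-fold change if the values are plain log2. From 14 to 28 dpl it differed by -0.033 (SE 0.16, 95% confidence interval -0.40 to 0.34, adjusted p = 0.926). The sign of that difference turned when 14 dpl replicate 1 (0.019) or 28 dpl replicate 1 (0.0099) or 3 (0.088) was left out. The fall over the whole interval was 0.81 (adjusted p = 0.00391). Without the neuron-rich 5 dpl replicate 1, which was the lowest of its group, the early fall was 0.92 (adjusted p = 0.00451).

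Lgals1, which encodes galectin-1, was the least reproducible of the 8. It read 11.41, 12.12 and 11.42 at 5 dpl, 11.34, 10.95 and 12.12 at 14 dpl, and 10.78, 10.55 and 11.89 at 28 dpl. Each time point held 1 array about 0.7 or more above the others, and the groups overlapped. Its pooled standard deviation within time points was 0.59, larger than that of 99.1% of all probes. Differences were -0.18 (95% confidence interval -1.09 to 0.73) from 5 to 14 dpl, -0.40 (-1.31 to 0.51) from 14 to 28 dpl and -0.58 (-1.49 to 0.33, adjusted p = 0.277) over the whole interval, so a fall of the size seen in Lgals3bp lies inside each of these intervals. The early difference turned to 0.056 without 5 dpl replicate 2 and to 0.080 without 14 dpl replicate 2.

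Among the annexins, Anxa1 had the largest differences from 5 to 14 and from 5 to 28 dpl, and Anxa3 that from 14 to 28 dpl. Annexin A1 is induced by glucocorticoids and acts on formyl peptide receptors to limit leukocyte entry. Its values were 12.16, 12.43 and 12.26 at 5 dpl, 11.13, 10.78 and 11.52 at 14 dpl, and 10.73, 11.50 and 11.09 at 28 dpl. The 5 dpl arrays stood above all 6 later arrays, which overlapped each other. Anxa1 fell by 1.14 from 5 to 14 dpl (SE 0.22, adjusted p = 0.00752), a 2.2-fold change if the values are plain log2. Of all probes, 3.12% had a larger difference in either direction. From 14 to 28 dpl it differed by -0.039 (95% confidence interval -0.54 to 0.46, adjusted p = 0.935), which turned to 0.017 with cyclic loess. Without 5 dpl replicate 1 the early fall was 1.20 (adjusted p = 0.0108).

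Anxa5 encodes annexin A5, which binds the phosphatidylserine exposed on dying cells and platelets. The arrays read 9.28, 9.76 and 9.58 at 5 dpl, 8.65, 8.82 and 8.97 at 14 dpl, and 9.06, 9.03 and 9.22 at 28 dpl. None of the 3 time points overlapped, with 14 dpl the lowest and 28 dpl between the others. Anxa5 fell by 0.73 from 5 to 14 dpl (SE 0.13, adjusted p = 0.00488), or by 0.86 without 5 dpl replicate 1 (adjusted p = 0.00115). The later difference, 0.29 (SE 0.13, 95% confidence interval -0.0038 to 0.58), did not pass (adjusted p = 0.171). Over the whole interval it fell by 0.44 (adjusted p = 0.0215), a call that ended when 5 dpl replicate 2 (0.0706) or 3 (0.0618) was left out, and likewise 28 dpl replicate 1 (0.0644) or 2 (0.0648).

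Anxa4, whose product is a calcium-dependent phospholipid-binding protein best known from epithelia, had a similar course. It read 12.21, 12.33 and 12.38 at 5 dpl, 11.77, 11.50 and 11.66 at 14 dpl, and 11.95, 12.18 and 12.02 at 28 dpl. The 3 time points did not overlap. Anxa4 fell by 0.66 from 5 to 14 dpl (SE 0.090, adjusted p = 0.00137), or by 0.71 without 5 dpl replicate 1 (adjusted p = 0.00166), and rose by 0.41 from 14 to 28 dpl (SE 0.090, adjusted p = 0.0185). The rise had an adjusted p between 0.0504 and 0.0546 when replicate 2 or 3 of either 14 or 28 dpl was left out, and 0.0535 with a replicate block. The level at 28 dpl was lower than at 5 dpl by 0.26 (SE 0.090, adjusted p = 0.0443). That call ended without 5 dpl replicate 2 (0.108) or 3 (0.130), 14 dpl replicate 3 (0.0646) or 28 dpl replicate 1 (0.140) or 3 (0.114), and with cyclic loess (0.109), the mean-variance trend (0.0519) or a replicate block (0.0865).

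Anxa3 was the one member that rose between 5 and 14 dpl. Annexin A3 is abundant in neutrophils, and in rat brain it has been described in microglia. The probe read 14.03, 14.04 and 14.11 at 5 dpl, 14.53, 14.30 and 14.23 at 14 dpl, and 13.69, 13.74 and 13.72 at 28 dpl. The 3 time points lay apart, with 14 dpl the highest and 28 dpl the lowest. Anxa3 rose by 0.29 from 5 to 14 dpl (SE 0.077, adjusted p = 0.0271) and fell by 0.64 from 14 to 28 dpl (SE 0.077, adjusted p = 0.00175). The rise did not pass without 5 dpl replicate 1 (0.28, adjusted p of 0.0541), 2 (0.29, 0.0762) or 3 (0.32, 0.0541) or without 14 dpl replicate 2 (0.32, 0.0565), nor with only these time points fitted (0.0632) or a replicate block (0.0605). The fall of 0.34 from 5 to 28 dpl (adjusted p = 0.00669) and the late fall passed in every alternative run.

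Anxa2 encodes annexin A2, which with S100a10 forms a cell surface receptor for plasminogen and its activator. It read 12.03, 12.31 and 11.97 at 5 dpl, 12.28, 11.66 and 11.96 at 14 dpl, and 11.69, 12.00 and 11.57 at 28 dpl. The time points overlapped in each comparison. Its differences were -0.14 (SE 0.17, adjusted p = 0.633), -0.21 (adjusted p = 0.451) and -0.35 (95% confidence interval -0.74 to 0.036, adjusted p = 0.127) for 5 to 14, 14 to 28 and 5 to 28 dpl. RefSeq lists 8 pseudogenes named after Anxa2 and 1 after Lgals1. Probe sequences were not used here, so whether these probes also bind such copies was not tested.

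**Figure D2:**
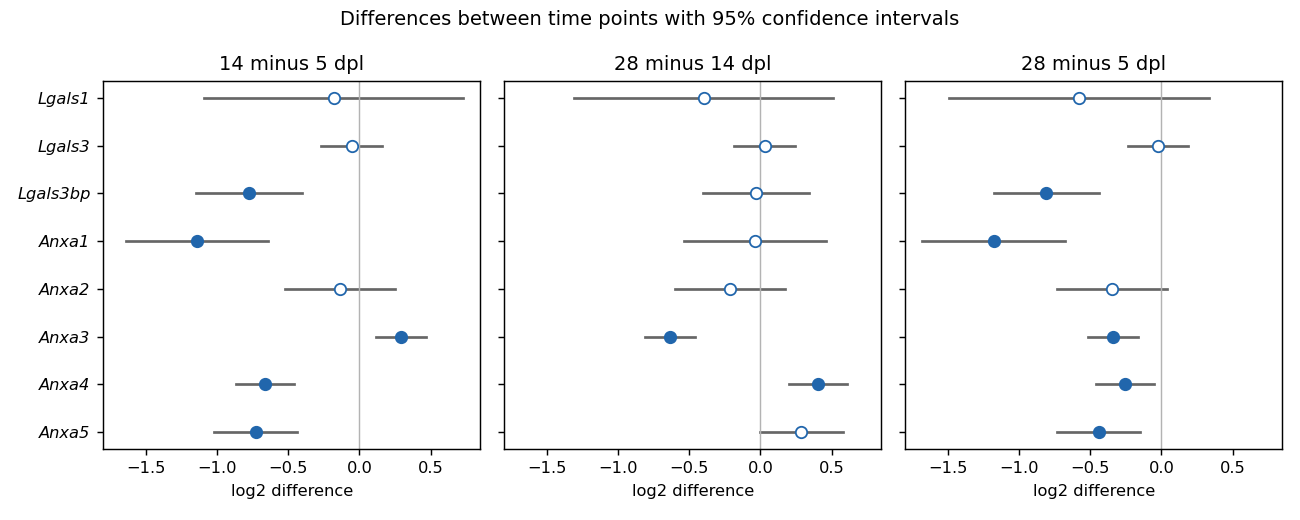
Log2 differences of the 8 genes for the 3 pairs of time points with 95% confidence intervals of the limma fit, filled where the adjusted p was under 0.05. Anxa1, Anxa4, Anxa5 and Lgals3bp lie left of 0 in the first panel, Anxa3 and Anxa4 lie on opposite sides in the middle panel, and the intervals of Lgals1 are the widest.

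The contrast of 14 dpl with the mean of 5 and 28 dpl asks whether the early and the late step differ. Of the 8 genes 1 was higher at 14 dpl, Anxa3, by 0.46 (SE 0.066, adjusted p = 0.0122), and 2 were lower, Anxa4 by a difference of -0.54 (SE 0.078, adjusted p = 0.0123) and Anxa5 by one of -0.51 (SE 0.11, adjusted p = 0.0424). Of all probes 2.24% were higher and 1.7% lower. None of the 3 calls held without 14 dpl replicate 2, with adjusted p-values of 0.0525 for Anxa3, 0.0553 for Anxa4 and 0.136 for Anxa5. That of Anxa5 also ended without any other single array except 5 dpl replicate 1, with an adjusted p of 0.0556 to 0.142. For Anxa1 and Lgals3bp this contrast gave -0.55 (adjusted p = 0.155) and -0.37 (adjusted p = 0.19), so their early and late steps were not shown to differ after adjustment.

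These courses can be set beside the cell type markers. Anxa1, Anxa4, Anxa5 and Lgals3bp fell between 5 and 14 dpl. In that interval 4 of the 14 measured microglia and macrophage markers fell and 0 rose with limma, where 10.1% of all probes were lower. The 4 included Cd14, an endotoxin co-receptor, which fell by 1.96 (SE 0.24, adjusted p = 0.000865). Mrc1, the mannose receptor, fell by 1.34 (SE 0.11, adjusted p = 0.000151). The median difference over the 14 was -0.165. Between 14 and 28 dpl, when Anxa3 fell, 10 of the 14 fell and 0 rose, where 7.48% of all probes were lower. P2ry12, a receptor of resting microglia, had means of 9.56, 9.88 and 8.58 at the successive times, and passed the contrast of 14 dpl with the mean of the others (0.81, SE 0.10, adjusted p = 0.00905). Of the 14 markers 1 other passed that contrast, Mrc1, in the opposite direction (-0.59, SE 0.094, adjusted p = 0.0161). S100a8, the only neutrophil marker of 4 with a probe, fell by 1.62 from 5 to 14 dpl (SE 0.19, adjusted p = 0.000683) and was at 7.07, under the estimated background, at 28 dpl.

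Markers of other cells moved as well. The 4 measured Schwann cell markers had a mean level per array of 8.87 to 9.00 at the first time, then 11.09 to 11.92 and 11.60 to 12.17. Of these, 3 were higher and 0 lower in the contrast of 14 dpl with the mean of the others, where 2.24% of all probes were higher. Pmp22, which passed (1.36, SE 0.18, adjusted p = 0.0106), had means of 11.19, 14.29 and 14.66 at the successive times. Such a pass thus does not require a peak at 14 dpl. Astrocyte markers (7 of 8 measured, 1 of them below background on all arrays) were at 9.52 to 10.33, 10.84 to 11 and 11.44 to 11.62, and those of myelin (7 of 8) at 8.63 to 9.27, 10.72 to 11.25 and 12.25 to 12.41. In the same contrast 1 myelin marker was higher and 0 lower, and 0 astrocyte markers passed. The endothelial marker Vwf, von Willebrand factor, was at 10.08, 9.35 and 9.72 at 5, 14 and 28 dpl, and passed the contrast of 14 dpl with the other time points (-0.55, SE 0.094, adjusted p = 0.0203), as Anxa4 and Anxa5 did. The other endothelial markers with a probe, Cldn5 and Flt1, gave -0.049 and -0.015. The 7 measured neuron markers also had their lowest means at 14 dpl, with a median of -0.81 in that contrast, and 0 passed. Their mean level per array was 7.93 to 10.43, 7.79 to 8.09 and 8.75 to 8.93 at the successive times. The value of 10.43 was that of 5 dpl replicate 1. The part of these cell types in the galectin and annexin differences was not tested.

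**Figure D3:**
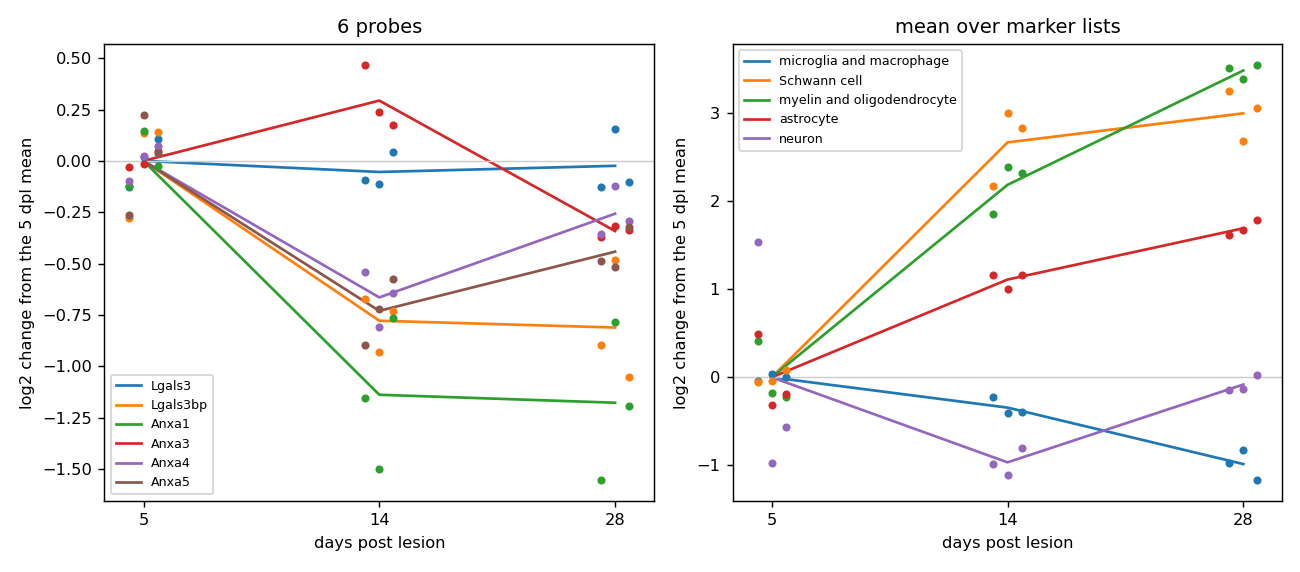
Log2 change from the 5 dpl mean at 5, 14 and 28 dpl for 6 of the probes (left) and for the mean over 5 cell type marker lists (right); dots are arrays, lines join time point means, and the axes differ in scale. Microglia and macrophage markers were lowest at 28 dpl, while Anxa4 and Anxa5 were lowest at 14 dpl; the high neuron value at 5 dpl is replicate 1.

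Other members of the families followed the early fall in part. Of 13 further galectins and annexins 6 had a probe, of which 3 fell between 5 and 14 dpl and 0 rose. In that interval 10.1% of all probes were lower and 10.7% higher. Limma gave the same counts over 5 to 28 dpl, where 24.1% of all probes were lower and 20.2% higher. Between 14 and 28 dpl 0 changed. Lgals8, which encodes galectin-8, a sensor of damaged vesicles, went from 10.06 to 9.81 (-0.25, SE 0.059, adjusted p = 0.018). Anxa6, with a double set of annexin repeats, went from 10.19 to 9.92 (-0.28, SE 0.070, adjusted p = 0.0241), and Anxa11, which takes part in RNA granule transport, from 10.74 to 10.43 (-0.31, SE 0.090, adjusted p = 0.0412). Anxa7 differed by -0.096 (adjusted p = 0.332). Lgals7 and Lgalsl lay near background, at time point means of 7.37 to 7.40 and 7.19 to 7.26.

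Of 20 annexin partners and genes of the plasmin system and membrane repair, 9 had a probe, of which 1 rose and 3 fell from 5 to 14 dpl (10.7% and 10.1% of all probes) and 3 rose and 4 fell from 5 to 28 dpl (20.2% and 24.1% of all probes). Plat encodes tissue plasminogen activator, whose surface receptor holds annexin A2. It rose by 2.15 (SE 0.22, adjusted p = 0.000381), from 9.06 to 11.21, and was at 11.38 at 28 dpl. S100a11, a calcium-binding partner of annexin A1, fell by 1.34 in that interval (SE 0.32, adjusted p = 0.0194), and Pla2g4a, the cytosolic phospholipase A2, whose activity annexin A1 is known to inhibit, fell by 1.19 (SE 0.13, adjusted p = 0.000649). The third gene that fell, Pdcd6, a calcium sensor, was named after its value was seen (-0.28, adjusted p = 0.0389). Capn2, the calcium-activated protease calpain 2, rose by 0.28 from 14 to 28 dpl (SE 0.062, adjusted p = 0.0178), while Pla2g4a fell by a further 0.55 (adjusted p = 0.0284). Named after their values were seen, S100a6, a calcium-binding protein, rose by 1.42 from 5 to 28 dpl (SE 0.36, adjusted p = 0.0118), and Plau, the urokinase plasminogen activator, fell by 0.55 (SE 0.13, adjusted p = 0.00844). S100a10, the partner of annexin A2, and the formyl peptide receptors Fpr1 and Fpr2 were without a probe and not analysed here.

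Of 23 galectin ligands, receptors and glycan-modifying enzymes 17 had a probe. Between 5 and 14 dpl 3 fell and 0 rose, between 14 and 28 dpl 3 fell and 0 rose, and over the whole interval 6 fell and 1 rose. The shares of all probes that fell were 10.1%, 7.48% and 24.1%, and of those that rose 10.7%, 7.49% and 20.2%. Cd44, a hyaluronan receptor, fell by 0.43 (SE 0.076, adjusted p = 0.00537) and then by 0.29 (adjusted p = 0.0378). Spn, the leukocyte sialoglycoprotein CD43, fell by 0.62 in the early interval (adjusted p = 0.0195). The third early fall was that of Fn1, fibronectin, named after its value was seen (-0.54, SE 0.16, adjusted p = 0.0468). Nrp1, neuropilin 1, a receptor for galectin-1, was at 11.08 and 10.99 at 5 and 14 dpl and fell to 9.44 at 28 dpl (-1.54, SE 0.25, adjusted p = 0.00596), and Itgam, an integrin subunit of leukocytes, named after its value was seen, fell by 0.76 in that interval (adjusted p = 0.0318). Ptprc, the leukocyte antigen CD45, fell by 0.76 over the whole interval (SE 0.14, adjusted p = 0.00283). The gene that rose over the whole interval was St6gal1, a sialyltransferase, also named after its value was seen, by 0.66 (adjusted p = 0.00798). The lysosomal membrane proteins Lamp1 and Lamp2, ligands of galectin-3, differed by 0.11 and 0.024 over that interval and did not pass.

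**Figure D4:**
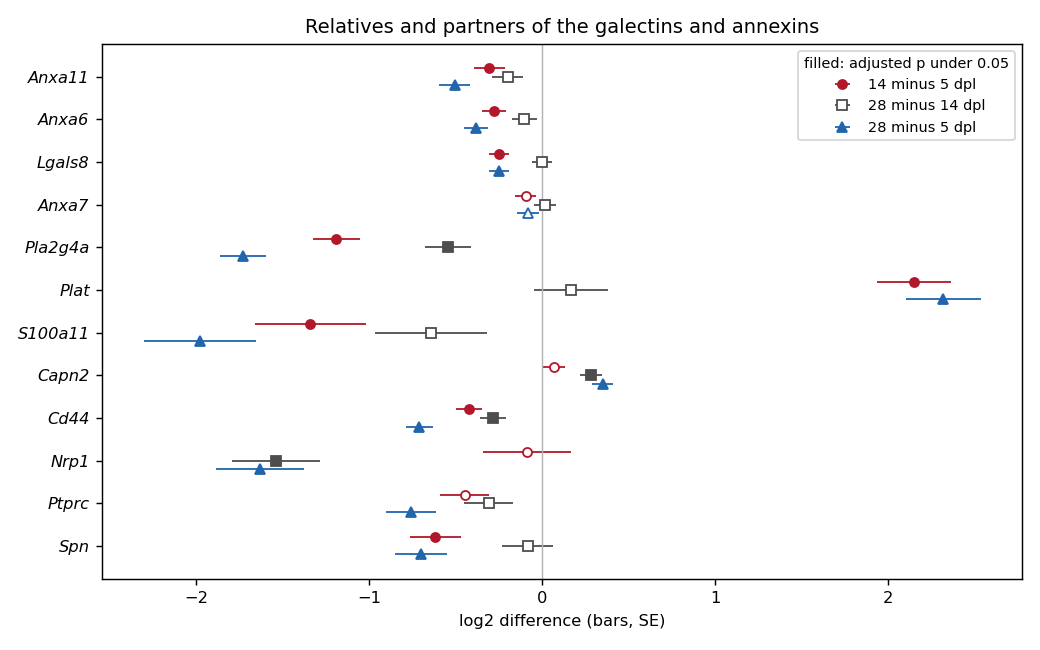
Log2 differences (bars, SE) of the 4 genes with the smallest p-values of each related list for the 3 pairs of time points, filled where the adjusted p was under 0.05. Plat lies furthest to the right, at 2.15 and 2.32, and S100a11 and Pla2g4a furthest to the left over the whole interval.

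The courses most like those of Lgals3 and Anxa2 were sought among 5706 other named probes above background on all arrays, by Pearson's r over the 9 arrays, which share 3 time points. The 5 nearest to Lgals3 were Trpv6, Usp11, Exosc4, Ripor1 and Ell, with r of 0.834 to 0.915 (Spearman's rho 0.577 to 0.921). Their time point means moved little, for example from 9.91 to 9.84 and 9.89 in Exosc4, so the likeness is one of array-to-array scatter. Nearest to Anxa2 were Hcst, Taf6l, Pafah1b3, Lin37 and Atp5mc1, with r of 0.923 to 0.965 (rho 0.828 to 0.967). Each of these was lower at every later time point, Hcst, an adaptor of natural killer cell receptors, from 8.79 through 8.48 to 8.09.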

How the data were processed

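Lesions were measured on 9 Illumina arrays, 3 per time point, with biotinylated cRNA prepared with the Ambion TotalPrep kit, per the labels' protocols. The deposited raw table holds detection p-values for 22226 targets, per the file headers, beside 9 signal columns that enter no value given here: column names there give a time point and no replicate, and only 1 measure of such columns was kept. The authors' normalized table holds 10552 probes on a log2 scale; its sorted columns differ by at most 0.0017, as quantile normalization gives, and no source used here gives its transform or filter. The tables share no identifiers, so members were read from the normalized table and the raw table served for background only. The platform annotation names 7679 probes, and RefSeq (GRCr8) holds 7670 of their gene identifiers; coordinates are given only for printed sequences.

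The limma 3.58.1 fit (R 4.3.3) gave each time point its own mean over all 9 arrays, with Benjamini-Hochberg adjustment over all probes and a threshold of 0.05, and was tested on simulated data. Background is the normalized value at the rank of the targets that a detection p above 0.01 leaves undetected on each array, of those detected at least once; this takes both tables to hold the same 10552. Of genes with several probes the brightest was used. The number of arrays limits the precision.

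The genes and lists were chosen with earlier results of these data known. Named genes are all members with a probe, the 4 genes of each related list with the smallest p over the pairwise contrasts, and the 5 probes most correlated with Lgals3 and Anxa2; exceptions are stated. Cell type markers were taken as lists, and those given singly were picked from them by no set rule. Alternatives were cyclic loess, array weights, a mean-variance trend, background filters, only the time points compared, a replicate block and leaving out each array.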

Additional observations from a re-analysis of the deposited data

How the results depend on the processing

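Of the 32 member differences, 15 passed limma's test as reported and 8 of these passed in every alternative given here: 16, or 15 where 14 dpl was set against the other times, since fitting only the times compared cannot apply there. None of the other 17 passed in any of these. The sign turned in 9 differences, none of them called: besides those given above with their values, the ranges without 1 array were -0.51 to 0.080 for Lgals1 and -0.29 to 0.016 for Anxa2 from 5 to 14 dpl, -0.059 to 0.081 for Lgals3, -0.20 to 0.088 for Lgals3bp and -0.24 to 0.15 for Anxa1 from 14 to 28 dpl, -0.11 to 0.029 for Lgals3 from 5 to 28 dpl, and -0.22 to 0.37 for Lgals1, -0.092 to 0.0026 for Lgals3 and -0.11 to 0.19 for Anxa2 for 14 dpl against the others. Lgals3 also turned to -0.022 with array weights (14 to 28 dpl) and 0.013 with cyclic loess (5 to 28 dpl), and Anxa1 to 0.017 with cyclic loess (14 to 28 dpl). Leaving out 1 array gave 4 to 5 called members from 5 to 14 dpl, 1 to 2 from 14 to 28 dpl, 3 to 5 from 5 to 28 dpl and 0 to 3 for 14 dpl against the others. Over all probes it gave 1285 to 2579, 836 to 2050, 3874 to 4929 and 60 to 613, against 2193, 1579, 4677 and 415. For 14 dpl against the others array weights gave 918 probes.

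The replicate block called 1 member from 14 to 28 dpl, in place of 2, and 199 probes for 14 dpl against the others. Same-numbered arrays did not deviate together (r of -0.291 to 0.147 over 9 pairs), so the number was not taken as a pairing. The cause of the lost calls was not tested.

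The planned return to the raw signal scale was run and then set aside with the raw signal columns, so its values are not given; it ended the call of Anxa4 from 5 to 28 dpl and no other member call.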

Other observations

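After each time point's mean had been taken away, the deviations of Lgals1 over the 9 arrays correlated most with those of F5, coagulation factor V (r = 0.893). Among the next were S100a11 (r = 0.818), the ribosomal protein genes Rpl13a (r = 0.814) and Rpl35 (r = 0.779), the nucleolar gene Npm1 (r = 0.832) and Fabp4, a fatty acid binding protein (r = 0.809). These are among the 10 highest of 433 other named probes whose own standard deviation within time points was above 0.3, and were picked after the values had been seen. Among the members, Anxa5 had r = 0.673 and Anxa1 r = 0.383, while Anxa4, Lgals3, Anxa2, Lgals3bp and Anxa3 had 0.056, -0.025, -0.00057, -0.178 and -0.258. With 433 candidates and 9 arrays some high values arise whatever the genes, so these are a description without a test.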
